A study of Rattus norvegicus with 19 samples.

Results

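Left ventricles of hypertensive Dahl salt-sensitive rats that had received paricalcitol were set against left ventricles of rats that had received only its vehicle, across 14217 genes. The comparison used 8 of the 19 arrays of the series, 4 per group, taken by the treatment named in the sample titles. All animals were male rats of the SS/Hsd strain, which becomes hypertensive when fed salt, and all ate 6% NaCl from 6 weeks of age. The paricalcitol group had eaten it for 5 weeks before treatment and then received 200 ng of paricalcitol by intraperitoneal injection 3 times a week for 4 weeks, with the diet continued. The vehicle group received propylene glycol and ethyl alcohol alone on the same schedule. Both groups were 15 weeks old at the end. The other arrays, used only to place these genes, came from rats given both enalapril and paricalcitol (4 arrays), enalapril with vehicle injections (3 arrays), or no treatment at 11 weeks of age (4 arrays, the baseline of established hypertrophy). Enalapril, an inhibitor of angiotensin-converting enzyme, was infused at 90 ug a day, a dose that by the series description did not significantly lower blood pressure. All 19 arrays came from rats on the salty diet, so the series holds no hearts from rats on an ordinary diet. Heart size was not among the values used here, so whether it differed between the groups is not known here.

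Paricalcitol is a synthetic vitamin D analog that activates the vitamin D receptor, a nuclear receptor. The receptor pairs with a retinoid X receptor, binds DNA at direct repeats of a short half-site and switches nearby genes on or off. In mice the receptor represses the renin gene in the kidney, and mice that lack it have high renin, high blood pressure and enlarged hearts. The comparison asks what the drug alone did to transcripts of a ventricle already enlarged by pressure overload.

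Each array gave 1 intensity per probe set. Values here are log2 of the quantile-normalized intensity plus 16, so a value of 4 is the floor, and the median gene lay at 7.07. Averages are given with the SD over the 4 arrays of a group, and n is 4 for each. Before normalization the medians of the 8 arrays ran from 43.6 to 66.1 intensity units. Heart muscle markers were bright in both groups: Myh7, the slow myosin heavy chain, averaged 14.14 ± 0.07 in paricalcitol hearts and 14.11 ± 0.04 in vehicle hearts, and Tnnt2, cardiac troponin T, averaged 14.22 ± 0.03 in paricalcitol hearts and 14.20 ± 0.04 in vehicle hearts. None of the 14 cardiomyocyte markers passed the test. Over the brighter 7108 genes, the first principal component of the 8 arrays held 36.8% of the variance. It ran from -22.6 to 18.2 among paricalcitol arrays, against -3.0 to 8.2 among vehicle arrays, so the paricalcitol hearts differed more among themselves. Red cell transcripts moved with that spread: the mean deviation of 8 red cell markers was 0.31, -0.61, -0.92 and 0.51 on paricalcitol arrays and 0.002, -0.25, 0.42 and -0.19 on vehicle arrays. With that score as a covariate in limma both genes named next still passed (adjusted p 0.0166 for Ecrg4 and 0.0366 for Atp6v1d). The animal numbers given with the arrays run in a block of their own per group, so a difference between cohorts and one between treatments cannot be told apart, and fewer cells of a type and less RNA per cell cannot be told apart in whole tissue.

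Only 2 genes passed limma's test at an adjusted p under 0.05, which is 0.0141% of the genes tested, and both fell with paricalcitol: Ecrg4 and Atp6v1d. No gene rose past the threshold. Ecrg4 encodes augurin, a secreted peptide precursor that is silenced in several human tumours. Atp6v1d encodes the D subunit in the rotor stalk of the vacuolar proton pump, which acidifies lysosomes and other vesicles. At an unadjusted p under 0.05 there were 1371 genes (9.64%), nearly evenly divided between 688 higher (4.84%) and 683 lower (4.80%) with paricalcitol. The paricalcitol and vehicle arrays did not overlap for 717 genes (5.04%), 355 of them higher (2.50%) and 362 lower (2.55%).

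**Figure D1:**
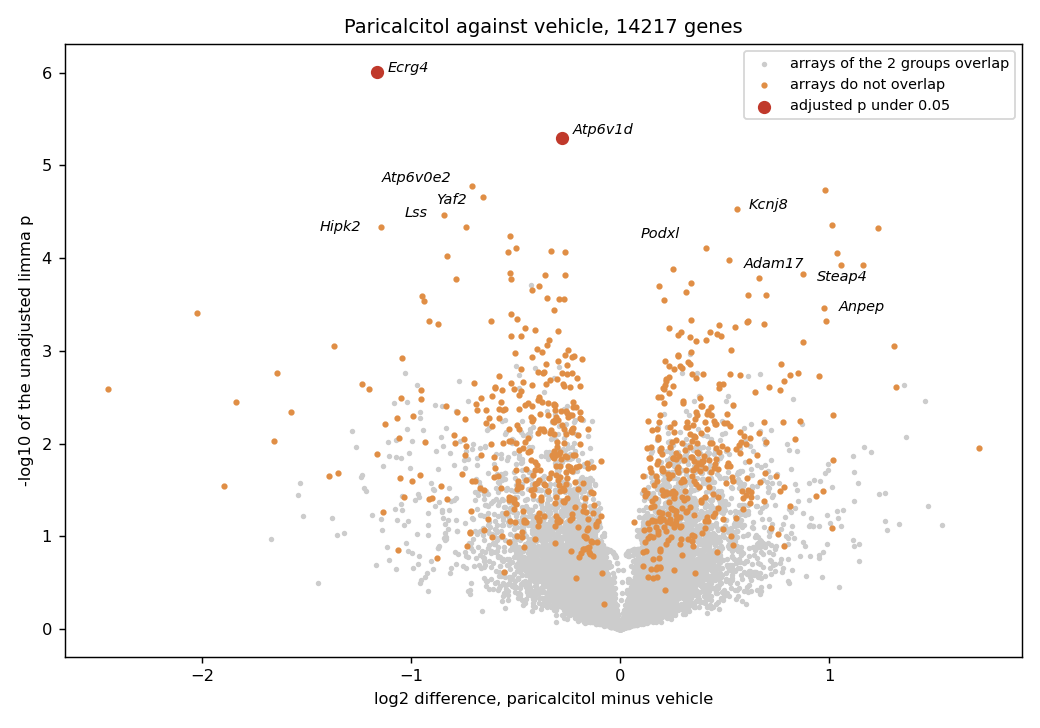
Log2 difference between paricalcitol and vehicle hearts (x axis) against the -log10 of the unadjusted limma p (y axis) for 14217 genes, with red points for the 2 genes past the adjusted threshold, orange points for genes whose arrays do not overlap and grey points for the rest. Ecrg4 and Atp6v1d stand on the lower side at -1.16 and -0.28, and the clouds of orange points on both sides are of like size, 355 higher and 362 lower.

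To show what lies upstream of both genes that passed and of Lss, a sterol synthesis gene that just missed the threshold, the promoters of the 3 genes are printed from RefSeq's annotation of the rat genome, build GRCr8, from 250 bases before to 50 bases after the gene's start, 5′ to 3′ on the gene's strand. The windows lie at chr9:53484790-53485089 on the plus strand for Ecrg4, chr6:103405297-103405596 on the minus strand for Atp6v1d and chr20:12118181-12118480 on the minus strand for Lss. Capitals mark GC boxes (GGGCGG) and CCAAT boxes found on either strand.
Ecrg4: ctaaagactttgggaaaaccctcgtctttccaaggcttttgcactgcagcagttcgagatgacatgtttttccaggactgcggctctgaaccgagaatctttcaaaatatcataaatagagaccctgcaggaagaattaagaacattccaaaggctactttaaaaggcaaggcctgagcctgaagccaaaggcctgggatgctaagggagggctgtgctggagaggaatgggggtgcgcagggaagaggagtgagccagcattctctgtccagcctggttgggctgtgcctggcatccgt
Atp6v1d: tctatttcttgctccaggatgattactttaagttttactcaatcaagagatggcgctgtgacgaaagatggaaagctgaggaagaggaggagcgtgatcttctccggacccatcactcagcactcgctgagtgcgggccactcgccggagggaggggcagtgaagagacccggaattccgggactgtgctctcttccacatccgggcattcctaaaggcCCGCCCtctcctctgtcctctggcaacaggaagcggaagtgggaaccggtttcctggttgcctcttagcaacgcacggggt
Lss: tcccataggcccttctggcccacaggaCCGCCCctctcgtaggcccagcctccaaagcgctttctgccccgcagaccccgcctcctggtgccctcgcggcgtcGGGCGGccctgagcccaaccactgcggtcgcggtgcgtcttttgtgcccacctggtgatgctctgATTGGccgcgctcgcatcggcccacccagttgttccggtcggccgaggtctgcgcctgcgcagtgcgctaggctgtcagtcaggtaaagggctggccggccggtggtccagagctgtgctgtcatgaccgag
A vitamin D response element was searched on both strands as the direct repeat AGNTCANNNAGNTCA, together with the half-site AGGTCA and the core TCACNCCAC of the sterol regulatory element. Of the 14217 genes tested, 11733 had a promoter in the table. The direct repeat occurred in 6 of them (0.0511%), the half-site in 12.7% and the sterol core in 1.12%. None of these 3 motifs was present in the windows printed. The Atp6v1d window holds a GC box 31 bases before the start, and GC boxes occurred in 57.5% of all promoters. The Lss window holds a CCAAT box 82 bases before the start, a motif in 37.3% of all promoters, and GC boxes 223 and 147 bases before it. The Ecrg4 window holds none of the 5 motifs. Half-sites occurred in 13.6% of the promoters of the non-overlapping higher genes and 11.3% of those of the lower genes, beside the 12.7% of all promoters. The matches describe letters in a window and not binding.

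Ecrg4 measured 5.99, 5.91, 6.42 and 5.85 on the paricalcitol arrays and 6.85, 7.42, 7.24 and 7.31 on the vehicle arrays. Every paricalcitol heart lay below every vehicle heart. The difference was -1.16 (SE 0.15, limma adjusted p = 0.0139), which is 55.3% lower on the scale of intensity plus 16. Hearts taken at baseline measured 6.28, 6.50, 6.63 and 6.17, so the paricalcitol hearts overlapped the baseline range, whereas the vehicle hearts lay above it. With enalapril present, the hearts given both drugs measured 6.52, 6.60, 6.62 and 6.82, and the hearts given enalapril alone 6.83, 7.02 and 7.08. The arrays of these 2 groups missed overlapping only narrowly, at 6.82 against 6.83, and the difference of -0.34 (SE 0.16) did not pass. The call held in 15 of 20 alternatives. It was lost without vehicle array 3 (-1.15, limma adjusted p = 0.0748), vehicle array 4 (-1.13, adjusted p = 0.0992) or paricalcitol array 4 (-1.10, adjusted p = 0.0794). The others were the deposited values (-1.07, adjusted p = 0.0543) and a fit of the 8 arrays alone (adjusted p = 0.188).

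Atp6v1d, a far brighter transcript, measured 11.62, 11.70, 11.59 and 11.58 on the paricalcitol arrays and 11.86, 11.94, 11.87 and 11.92 on the vehicle arrays. The change was small and even: -0.28 (SE 0.04, limma adjusted p = 0.0358), or 17.6% lower. Its 4 paricalcitol arrays lay below all 15 other arrays of the series, which ranged upward from 11.76 on baseline and double-treated hearts. Few genes did so: the paricalcitol arrays stood apart from all 15 others for 13 genes (0.0914% of all genes), 6 above and 7 below. That was the fewest of any group. The vehicle arrays stood apart for 22 genes (0.155%) and the double-treated arrays for 20 (0.141%). The 3 enalapril arrays did so for 29 (0.204%) and the baseline arrays for 28 (0.197%). The call held in 12 of 21 alternatives. It was lost when vehicle array 2, 3 or 4 (adjusted p 0.113, 0.0748 and 0.137) or paricalcitol array 3 or 4 (adjusted p 0.146 and 0.0853) was left out. The others were the deposited values (limma adjusted p = 0.874), cyclic loess (0.0616), no variance trend (0.0505) and the fit of the 8 arrays alone (0.128). The difference lay between -0.43 and -0.26 under all 21.

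**Figure D2:**
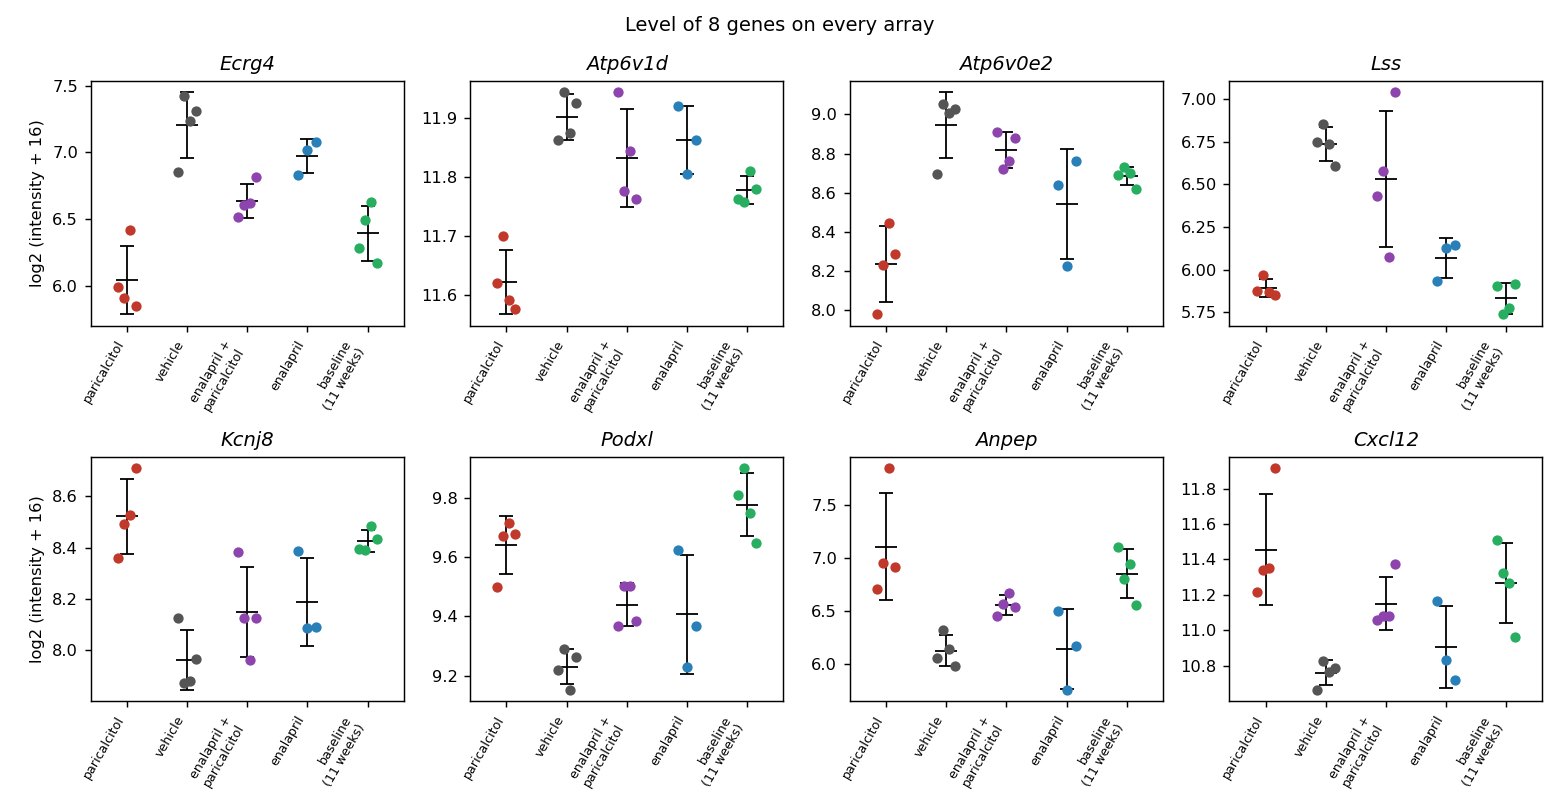
Log2 level of 8 genes on every array (y axes, log2 of intensity plus 16) by treatment group (x axis), with bars for the mean and SD of each group. For Ecrg4, Atp6v1d, Atp6v0e2 and Lss the paricalcitol points lie below the vehicle points, and for Kcnj8, Podxl, Anpep and Cxcl12 above them.

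The proton pump of which Atp6v1d is a part consists of a V1 sector that hydrolyses ATP and a V0 sector in the membrane that carries protons. Of its 23 measured subunits and accessory proteins, 15 were lower and 8 higher with paricalcitol, with a median of -0.10 beside 0 over all genes. That median was 0.01 for both drugs against enalapril alone. Atp6v1d was the only member past the threshold. At an unadjusted p under 0.05 there were 6 lower members and 1 higher (beside 4.80% and 4.84% of all genes), and 4 lower members had arrays that did not overlap (beside 2.55% of all genes). Atp6v0e2, an isoform of the e subunit of the membrane sector, measured 7.98, 8.23, 8.44 and 8.29 in paricalcitol hearts and 8.70, 9.05, 9.01 and 9.03 in vehicle hearts. Its difference of -0.71 (SE 0.11) just missed the threshold (limma adjusted p = 0.0606). Atp6v1e1, a peripheral stalk subunit, averaged 10.34 ± 0.11 in paricalcitol hearts and 10.54 ± 0.04 in vehicle hearts, without overlap. Atp6v1c2, an isoform of the C subunit, was near the floor in paricalcitol hearts, at 4.44, 4.00, 4.12 and 4.80, against 5.05, 5.33, 5.67 and 5.50 in vehicle hearts (limma adjusted p = 0.251). Not all subunits were lower: Atp6v1a, which carries the catalytic sites, differed by 0.04 and Atp6v0a4, an isoform known from the kidney, by 0.48. Atp6ap2, an accessory protein that is also the prorenin receptor, differed by 0.01, a sign that turned under several alternatives. Vps39, a subunit of the complex that fuses vesicles with lysosomes, differed by -0.53 (7.52 in paricalcitol hearts and 8.05 in vehicle hearts, limma adjusted p = 0.0805).

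Proteasome subunits showed the reverse tendency and, of the 35 lists, the largest share of members at the unadjusted level. The proteasome is the complex that degrades ubiquitin-tagged proteins, with a core of alpha and beta rings and a regulatory cap of ATPases. Of 30 measured subunits, 24 were higher and 6 lower with paricalcitol, none past the threshold. At an unadjusted p under 0.05 there were 14 higher and 0 lower (beside 4.84% and 4.80% of all genes). The median was 0.11, beside 0 over all genes, and it turned to -0.03 when each array was centred on its median, a scaling that moved the median of all genes to -0.08. Psmc3, an ATPase of the cap, measured 9.58, 9.76, 9.67 and 9.72 in paricalcitol hearts and 9.42, 9.42, 9.31 and 9.41 in vehicle hearts. Psmc4, another cap ATPase, averaged 10.26 ± 0.10 in paricalcitol hearts and 9.98 ± 0.14 in vehicle hearts. Psma5 and Psmb3, subunits of the outer and inner core rings, differed by 0.22 and 0.26. For all 4 the arrays did not overlap, and limma adjusted p ran from 0.137 to 0.204. The members' differences were small, from -0.12 for Psmb5 to 0.29 for Psmc3. In enalapril-treated hearts the list's median, both drugs against enalapril alone, was 0.06.

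**Figure D3:**
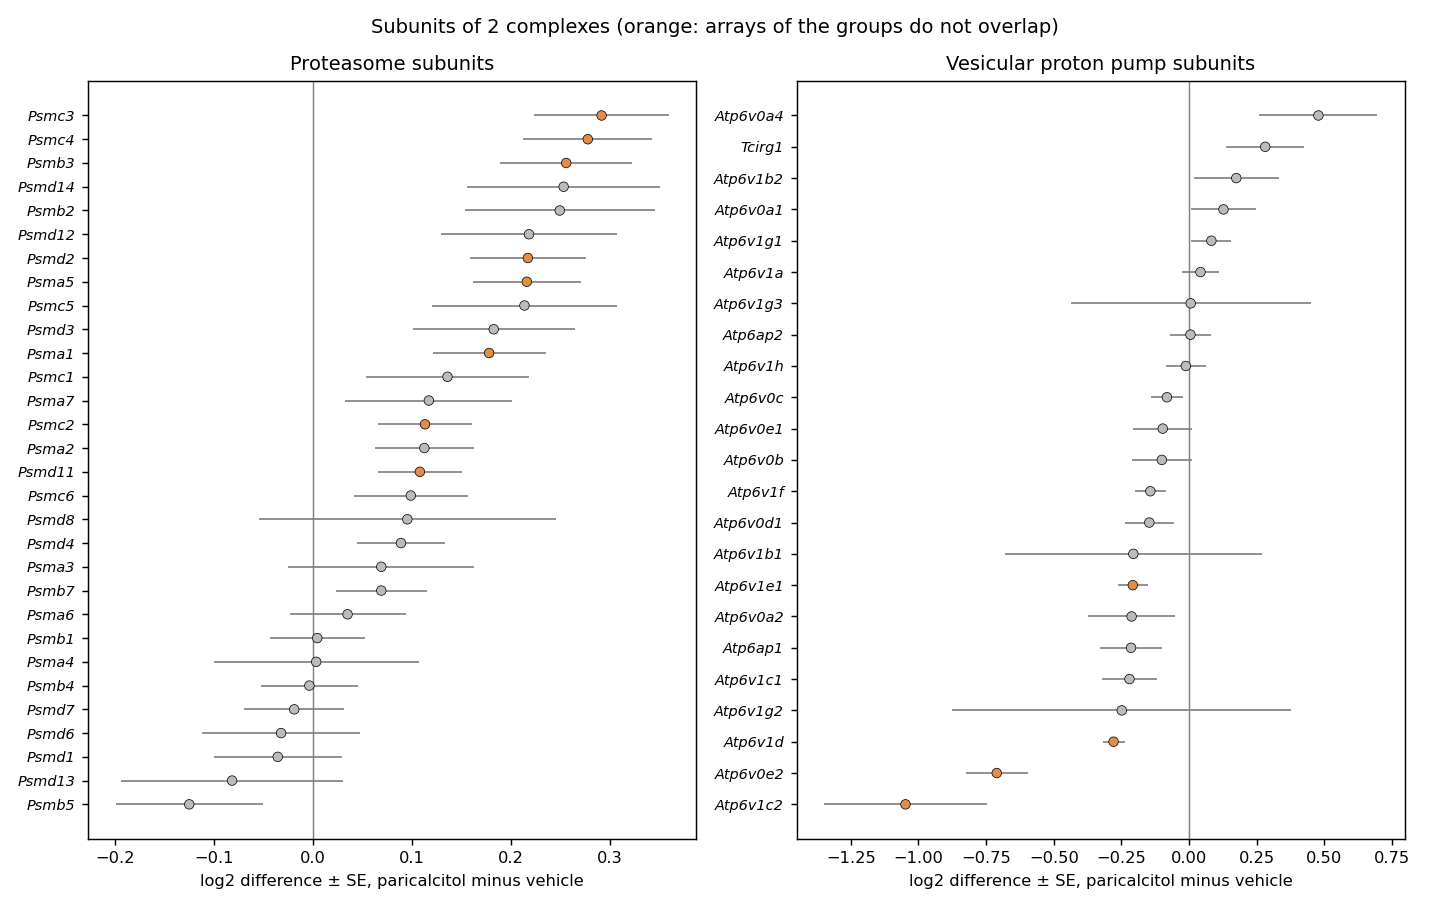
Log2 difference between paricalcitol and vehicle hearts with its SE (x axes) for 30 proteasome subunits (left) and 23 proton pump subunits (right), in orange where the arrays of the groups do not overlap. Most proteasome subunits lie right of 0 (24 of 30) and most pump subunits left of it (15 of 23), with Atp6v1d among the smallest errors.

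Further lower genes were taken by the smallest p-values among genes whose arrays did not overlap. Hipk2, a nuclear protein kinase that acts on p53, measured 8.95, 9.21, 8.58 and 8.41 in paricalcitol hearts and 9.95, 10.12, 9.89 and 9.78 in vehicle hearts. That difference of -1.15 (SE 0.20) was about as large as that of Ecrg4, with a wider spread and a limma adjusted p of 0.0606. Yaf2, a partner of the transcription factor YY1, averaged 6.95 ± 0.18 in paricalcitol hearts and 7.60 ± 0.18 in vehicle hearts. St6galnac2, an enzyme that adds sialic acid to glycoproteins, averaged 8.64 ± 0.22 in paricalcitol hearts and 9.38 ± 0.04 in vehicle hearts. Snrnp40, a protein of the U5 particle of the spliceosome, differed by -0.53 and its paricalcitol arrays lay below every other array of the series. Dimmer probe sets of Snrnp40 differed by -0.26 (SE 0.29) and, the other way, by 0.14 (SE 0.27). Adissp, a secreted protein, differed by -0.54 and was also lowest on the 4 paricalcitol arrays. Mocs2, a subunit of molybdopterin synthase, differed by -0.50 and Cops4, a subunit of the COP9 signalosome, by -0.26. Trappc12, of a vesicle tethering complex, differed by -0.33, but there the vehicle arrays stood above all others in the series, from 8.58 to 8.70, against 8.16 to 8.43 on paricalcitol arrays. Limma adjusted p of these genes ran from 0.0606 to 0.0704, so none passed.

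The same rule gave 12 higher genes. Kcnj8 encodes the Kir6.1 pore of the ATP-sensitive potassium channel of vascular smooth muscle and pericytes. It measured 8.36, 8.49, 8.53 and 8.71 in paricalcitol hearts and 8.12, 7.87, 7.88 and 7.97 in vehicle hearts (difference 0.56, SE 0.10, limma adjusted p = 0.0606). Podxl, a sialomucin of the endothelial surface, measured 9.50, 9.67, 9.71 and 9.68 in paricalcitol hearts and 9.22, 9.29, 9.15 and 9.27 in vehicle hearts. Cxcl12, the chemokine that binds CXCR4, measured 11.22, 11.34, 11.35 and 11.92 in paricalcitol hearts and 10.66, 10.83, 10.76 and 10.79 in vehicle hearts. In each of the 3 the groups did not overlap, with paricalcitol array 4 the highest for Kcnj8 and Cxcl12. Actg2, a smooth muscle actin, averaged 9.14 ± 0.07 in paricalcitol hearts and 8.53 ± 0.14 in vehicle hearts. Anpep, aminopeptidase N, measured 6.71, 6.95, 7.84 and 6.91 in paricalcitol hearts and 6.06, 6.32, 6.15 and 5.98 in vehicle hearts. Its difference of 0.98 (SE 0.21, limma adjusted p = 0.108) was the largest of the 12 higher genes, and paricalcitol array 3 was well above the other arrays. Adam17, the protease that sheds tumour necrosis factor from the membrane, and Steap4, a metalloreductase, differed by 0.52 and 0.87. For both, the vehicle arrays lay below all other arrays of the series. The remaining higher genes were Map4k3, a stress-pathway kinase (0.25), Cfdp1 (0.34), the chaperonin subunit Cct7 (0.18), the RNA-binding protein Lsm5 (0.31) and Spag7 (0.21). A dimmer second probe set of Cfdp1 differed by -0.27 (SE 0.33). Limma adjusted p of the 12 ran from 0.0606 to 0.108.

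Markers of vessel walls were mostly higher. Of 14 smooth muscle and pericyte markers, 13 were higher and 1 lower with paricalcitol, with a median of 0.23, and of 13 endothelial markers 12 were higher and 1 lower, with a median of 0.17, beside a median of 0 over all genes, of which 49.3% were higher. None of these markers passed the test, and both medians stayed above 0 under all 21 alternatives. At an unadjusted p under 0.05 there were 4 higher and 0 lower markers in each list (beside 4.84% and 4.80% of all genes). In enalapril-treated hearts the medians, both drugs against enalapril alone, were -0.08 for smooth muscle and pericyte markers and 0.03 for endothelial markers. Pdgfrb, the platelet-derived growth factor receptor of pericytes, measured 7.91, 7.97, 7.64 and 7.96 in paricalcitol hearts and 7.23, 7.63, 7.31 and 7.60 in vehicle hearts, without overlap by a narrow gap. Tek, the endothelial angiopoietin receptor, averaged 9.59 ± 0.13 in paricalcitol hearts and 9.29 ± 0.10 in vehicle hearts, without overlap. Emcn, endomucin, averaged 9.48 ± 0.18 in paricalcitol hearts and 8.87 ± 0.29 in vehicle hearts, with overlapping arrays. Acta2 and Tagln, contractile proteins of smooth muscle, differed by 0.54 and 0.59, and for both the first vehicle array reached into the paricalcitol range. Against this, Nos3, the endothelial nitric oxide synthase, differed by -0.19 and Smtn, smoothelin, by -0.31.

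**Figure D4:**
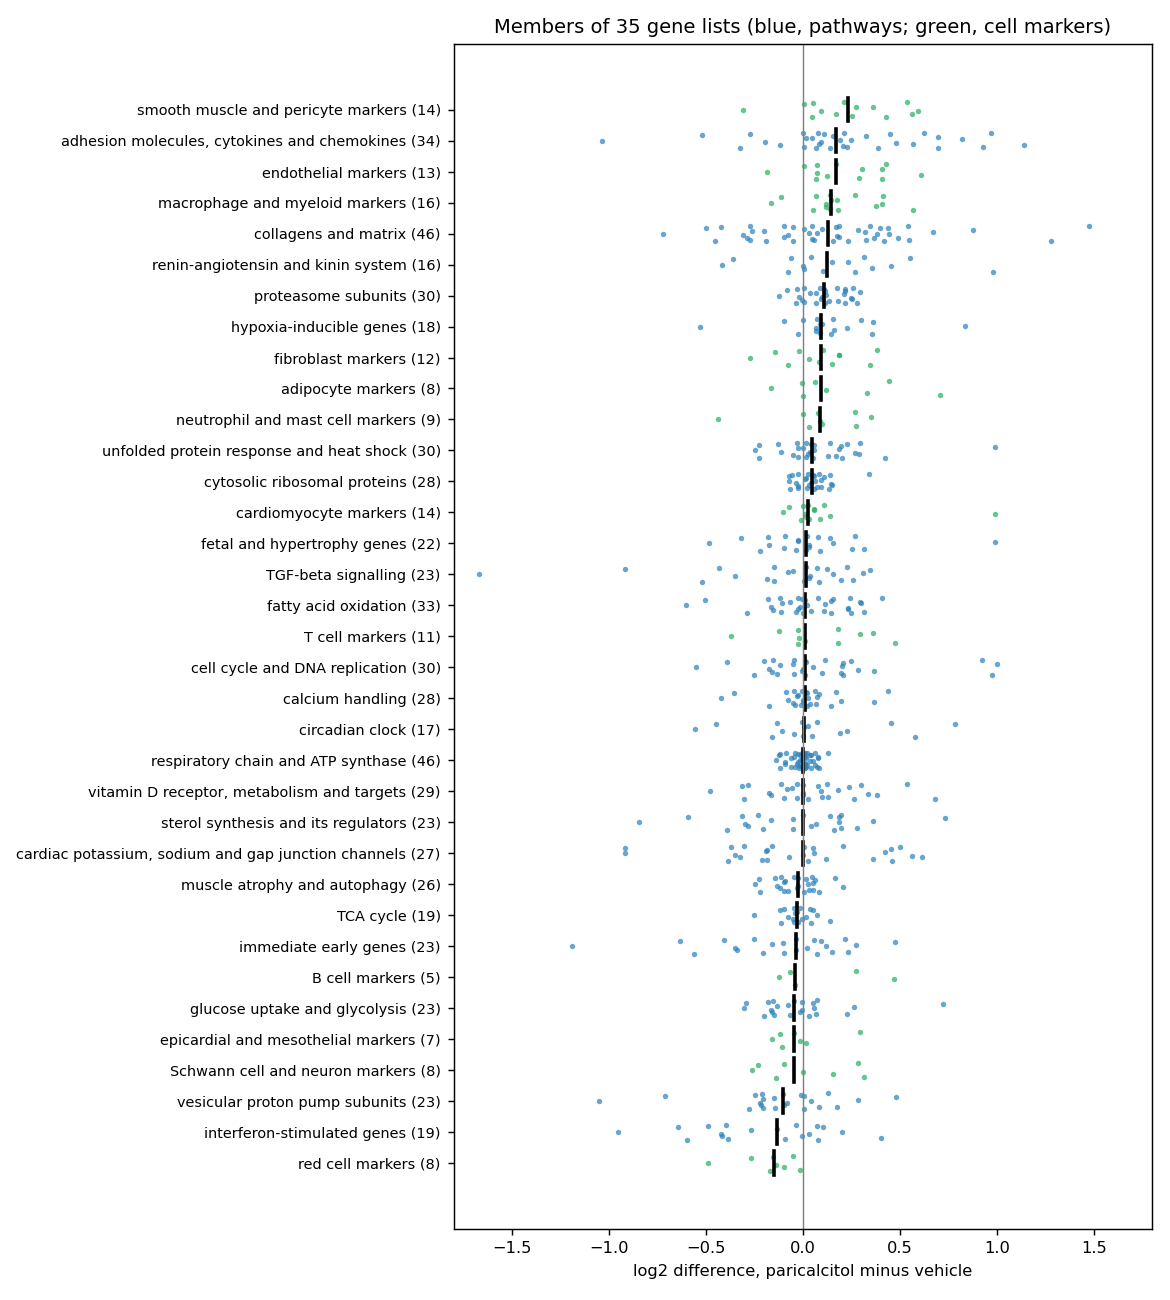
Log2 difference between paricalcitol and vehicle hearts (x axis) for each measured member of 35 gene lists (points; blue for pathways, green for cell markers), with a black bar at each list's median and the number of members in brackets. The medians run from 0.23 for smooth muscle and pericyte markers to -0.15 for red cell markers, and single members spread far wider than the medians.

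Inflammatory genes were mostly higher, and interferon-stimulated genes mostly lower. Of 34 adhesion molecules, cytokines and chemokines, 27 were higher and 6 lower with paricalcitol (median 0.17), none past the threshold. At an unadjusted p under 0.05 there were 5 higher and 1 lower (beside 4.84% and 4.80% of all genes). Without paricalcitol array 4 the median was 0.07. For both drugs against enalapril alone the list's median was -0.16. Vcam1, the vascular adhesion molecule for leukocytes, measured 7.53, 7.46, 8.07 and 8.43 in paricalcitol hearts and 7.19, 7.63, 7.03 and 7.14 in vehicle hearts, so that the groups overlapped. Tlr2, a receptor for bacterial lipoproteins, averaged 6.10 ± 0.50 in paricalcitol hearts and 4.96 ± 0.70 in vehicle hearts, and the chemokine Ccl4 averaged 6.35 ± 0.55 in paricalcitol hearts and 5.42 ± 0.50 in vehicle hearts. Cx3cl1, the fractalkine chemokine, differed the other way by -1.03. Macrophage markers were higher in 14 of 16 cases (median 0.14, or 0.04 without paricalcitol array 4), with 1 higher and 0 lower at an unadjusted p under 0.05 (beside 4.84% and 4.80% of all genes). Their median for both drugs against enalapril alone was -0.18. Their mean deviation was not even over the paricalcitol arrays: it was -0.001, -0.59, 0.40 and 0.31, against -0.02, -0.27, -0.29 and -0.02 on the vehicle arrays, and its part in the cytokine list was not tested. Of 19 interferon-stimulated genes, 13 were lower and 6 higher. At an unadjusted p under 0.05 there were 3 lower and 0 higher (beside 4.80% and 4.84% of all genes). Members of this list ran from -0.95 to 0.40. Their median of -0.13 ran from -0.27 with arrays centred on their medians to -0.015 without vehicle array 2. For both drugs against enalapril alone it was -0.12. Usp18, a protease that removes the interferon-induced modifier ISG15, measured 6.99, 7.73, 7.59 and 7.0 in paricalcitol hearts and 7.99, 8.88, 8.24 and 8.0 in vehicle hearts, without overlap (difference -0.95, SE 0.27, limma adjusted p = 0.256). Irf7 and Stat2, transcription factors of the interferon response, differed by -0.65 and -0.27, and Oas1a, an antiviral enzyme, by -0.42.

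Matrix genes, of interest because pressure overload lays down collagen, did not pass. Of 46 collagens and matrix genes, 30 were higher and 16 lower with paricalcitol, from -0.72 to 1.47. At an unadjusted p under 0.05 there were 6 higher and 1 lower (beside 4.84% and 4.80% of all genes). The median of 0.13 was 0.02 with arrays centred on their medians, 0.04 without vehicle array 1 and -0.0005 without paricalcitol array 3. For both drugs against enalapril alone it was -0.17. The main fibrillar collagens varied more among paricalcitol hearts than the groups differed. Col1a1 measured 11.18, 10.85, 12.25 and 10.42 in paricalcitol hearts and 10.34, 11.09, 10.85 and 11.03 in vehicle hearts. Col3a1 measured 12.41, 12.24, 13.24 and 11.96 in paricalcitol hearts and 11.82, 12.59, 12.19 and 12.50 in vehicle hearts. Paricalcitol array 3 was the highest of all for both, and without it both differences turned below 0 (-0.011 and -0.074). The basement membrane chain Col4a2 averaged 10.68 ± 0.20 in paricalcitol hearts and 10.23 ± 0.19 in vehicle hearts, without overlap, and Col18a1, another basement membrane collagen, differed by 0.54. Mmp14, a membrane-bound matrix protease, differed by 0.49 and Serpinh1, a collagen chaperone, by 0.44. Among the 23 genes of TGF-beta signalling, 13 were higher and 10 lower, with a median of 0.02 that turned to -0.06 with arrays centred on their medians. Bmp4, a secreted bone morphogenetic protein, measured 7.42, 6.53, 6.58 and 7.17 in paricalcitol hearts and 7.68, 7.94, 7.68 and 8.06 in vehicle hearts, without overlap (difference -0.92, SE 0.21, limma adjusted p = 0.125). Bmp6 differed by -0.35, and Tgfb3 and Ltbp1, a ligand and a protein that stores it in the matrix, by 0.31 and 0.35. Tgfb1 itself differed by -0.05, with 7.69 to 8.80 on paricalcitol arrays and 8.20 to 8.43 on vehicle arrays.

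The receptor of the drug and its known targets were nearly evenly divided. Vdr was dim, at 5.03, 5.83, 6.04 and 5.40 in paricalcitol hearts and 5.35, 5.95, 5.58 and 5.53 in vehicle hearts, and the groups overlapped fully. Its partner Rxra averaged 5.47 ± 0.22 in paricalcitol hearts and 5.64 ± 0.21 in vehicle hearts. Of the 29 measured genes for the receptor, vitamin D metabolism and targets, 14 were higher, 12 lower and 3 at the floor on all 8 arrays, with a median of 0. None passed, and none had arrays without overlap (beside 5.04% of all genes). In a list this short that share would give few genes, so the absence says little. Cdkn1a, the cell cycle inhibitor p21 and a vitamin D target in human cells, averaged 10.37 ± 0.25 in paricalcitol hearts and 10.04 ± 0.12 in vehicle hearts. For both drugs against enalapril alone Cdkn1a differed the other way, by -0.53 (SE 0.17), and the list's median there was 0. Igfbp3, a binding protein for insulin-like growth factors and likewise a target in human cells, averaged 7.70 ± 0.48 in paricalcitol hearts and 7.03 ± 0.23 in vehicle hearts. Pdia3, a disulfide isomerase also described as a membrane receptor for vitamin D, differed by 0.24, and Cyp3a2, a drug-metabolising enzyme, was at the floor on all 4 paricalcitol arrays and on 2 vehicle arrays. For these 4 the groups overlapped.

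The renin-angiotensin system was examined because the receptor represses renin in mice. Of 16 measured genes, 11 were higher and 4 lower with paricalcitol. Their median of 0.13 ran from -0.03, with the dimmer genes left out, to 0.25 under 21 alternatives, and was 0.03 without vehicle array 2 or 3. At an unadjusted p under 0.05 there were 3 higher and 0 lower (beside 4.84% and 4.80% of all genes): Anpep (0.98), Mme (0.45) and Enpep (0.23). Enpep, aminopeptidase A, turns angiotensin II into angiotensin III, and Anpep acts on angiotensin III. Mme, neprilysin, which degrades natriuretic peptides, was near the floor in both groups. Ace, the enzyme that enalapril blocks, measured 8.03, 7.30, 7.31 and 7.92 in paricalcitol hearts and 8.07, 7.50, 8.30 and 8.38 in vehicle hearts, overlapping, with a difference of -0.42 (SE 0.29). Agtr1a, the angiotensin II receptor, averaged 5.84 ± 0.44 in paricalcitol hearts and 5.57 ± 0.43 in vehicle hearts. Agt, the precursor, was at the floor on 3 arrays of each group.

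Genes that mark the enlarged heart did not pass the test. Of 22 fetal and hypertrophy genes, 12 were higher and 10 lower, none at an unadjusted p under 0.05 (beside 9.64% of all genes). In a list this short that share would give few genes, so the absence says little. Nppa, atrial natriuretic peptide, averaged 14.31 ± 0.16 in paricalcitol hearts and 14.41 ± 0.02 in vehicle hearts, close to the top of the scale, where quantile normalization leaves little room for a difference. Nppb, the brain natriuretic peptide, measured 13.65, 13.39, 13.02 and 13.94 in paricalcitol hearts and 13.68, 13.59, 13.79 and 13.63 in vehicle hearts. Myh6, the fast myosin heavy chain, measured 12.04, 13.38, 13.63 and 13.16 in paricalcitol hearts and 11.36, 13.04, 11.75 and 12.10 in vehicle hearts. Its difference of 0.99 (SE 0.48, limma adjusted p = 0.541) was large but the groups overlapped. Acta1, skeletal alpha-actin, and Atp2a2, the calcium pump of the sarcoplasmic reticulum, differed by 0.02 and -0.03, signs that turned under some alternatives. Among channels and calcium handling genes, Gja1, the ventricular gap junction protein, averaged 13.13 ± 0.08 in paricalcitol hearts and 12.93 ± 0.06 in vehicle hearts, and Gja4, a vascular gap junction protein, averaged 8.14 ± 0.14 in paricalcitol hearts and 7.69 ± 0.19 in vehicle hearts. Atp2b1, a calcium pump of the cell membrane, differed by 0.37 and Cacna2d1, a calcium channel subunit, by -0.42. The arrays of these last 4 did not overlap, and none passed. Dimmer probe sets of Atp2b1 differed by 0.22 (SE 0.13) and, the other way, by -0.54 (SE 0.38).

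Sterol synthesis was divided. Lss, lanosterol synthase, which closes the sterol ring, measured 5.88, 5.97, 5.87 and 5.85 in paricalcitol hearts and 6.75, 6.85, 6.73 and 6.61 in vehicle hearts. The groups lay far apart, with a difference of -0.84 (SE 0.15), or 44.3% lower, and a limma adjusted p of 0.0606. Baseline hearts measured 5.90, 5.74, 5.77 and 5.92, within or just below the paricalcitol range. With enalapril present the order was the other way: hearts given both drugs measured 6.44, 6.58, 6.08 and 7.04, and hearts given enalapril alone 5.93, 6.13 and 6.15, with overlap and a difference of 0.47 (SE 0.16). Insig1 and Insig2, which hold back the activation of sterol genes, differed by -0.32 and -0.23, and Pmvk, phosphomevalonate kinase, by -0.30, all with overlapping arrays. Of the list's 23 genes, 11 were higher and 11 lower, and the median was 0. Among them, 2 higher and 6 lower genes had an unadjusted p under 0.05 (beside 4.84% and 4.80% of all genes). CCAAT boxes, as in the Lss window, were found in 15 of the 19 promoters of the list that the table holds (78.9%), beside 37.3% of all promoters. The proteasome and proton pump lists held them in 53.8% and 52.6%. A link to the change of Lss was not tested.

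The hearts treated with enalapril offer a second comparison for the same drug that shares no array with the first. The deviations of equally numbered paricalcitol and double-treated arrays from their group means correlated at 0.42, 0.555, 0.336 and 0.315 over the brighter genes. Only 2 of 4 paricalcitol and 1 of 4 double-treated arrays correlated best with their own number. In the second comparison, both drugs against enalapril alone, no gene passed limma's test, and 754 genes (5.30%) had an unadjusted p under 0.05. Of the 688 genes higher with paricalcitol at that level, 377 (54.8%) were also higher in the second comparison, beside 52.4% of all higher genes. Of the 683 lower genes, 352 (51.5%) were also lower, beside 48.2% of all lower genes. Counting only genes with an unadjusted p under 0.05 in the second comparison too, 39 of the 688 (5.67%) were higher again, beside 3.09% of all higher genes, and 25 of the 683 (3.66%) lower again, beside 2.35% of all lower genes. The p-values of both comparisons rest on the same estimate of each gene's spread, and its part in these shares was not tested. Across all genes, which are no independent replicates and share the normalization, the differences of both comparisons had a Pearson r of 0.04, and of 0.11 over the 7330 genes above the median level. Among the 12 higher genes named by rank 10 were also higher with enalapril present, the clearest being Lsm5 (0.24, SE 0.07) and Map4k3 (0.13, SE 0.05), but their median was 0.07 there and 0.47 without enalapril. Among the 12 lower genes 6 were also lower, with a median of 0.01 there and -0.53 without enalapril. Since the 24 were ranked on the first comparison, a smaller difference in the second is built into the choice. Atp6v0e2 was higher by 0.27 (SE 0.12) with enalapril present, against -0.71 without it. The interaction of both drugs, tested directly, passed for 0 genes in limma, with a smallest adjusted p of 0.113 and 987 genes at an unadjusted p under 0.05. With the replicate number as a block 1 gene passed, C5ar1, the receptor of a complement peptide (interaction 0.85, SE 0.10, limma adjusted p = 0.0363), named because it was the one call.

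**Figure D5:**
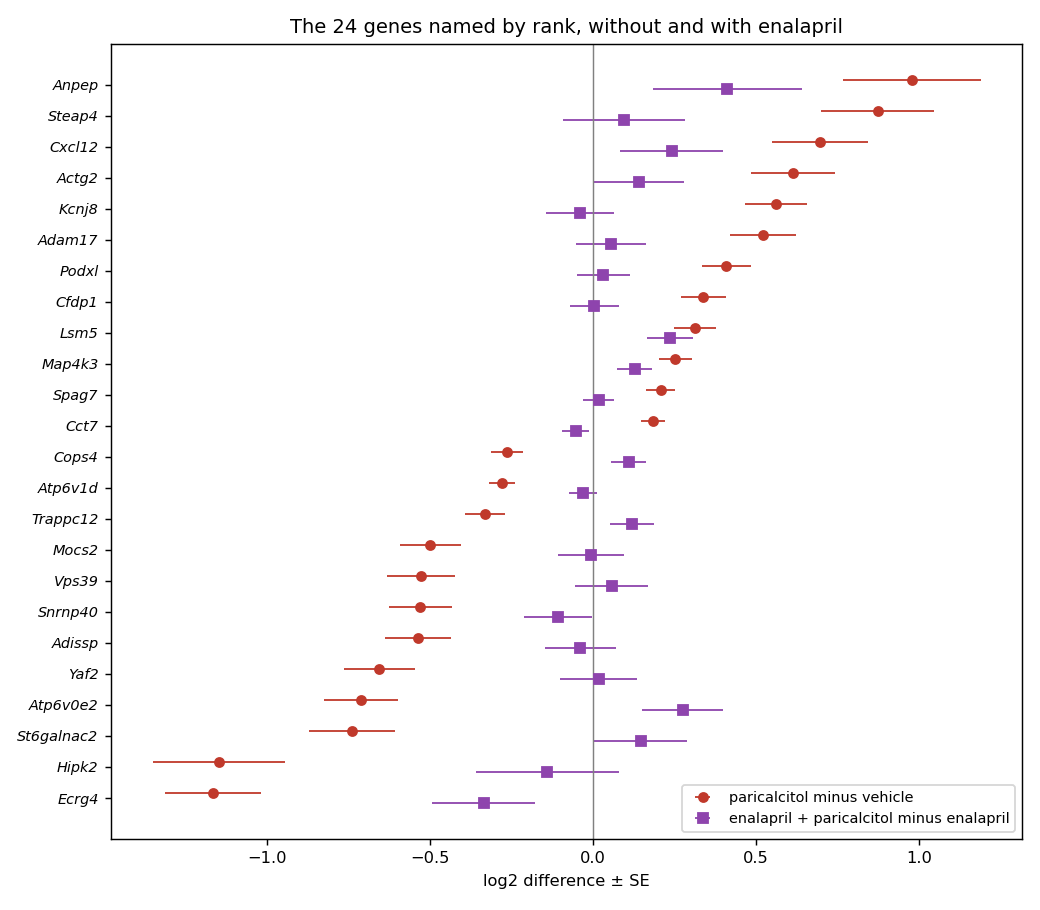
Log2 difference with its SE (x axis) of the 24 genes named by rank, for paricalcitol against vehicle (red circles) and for both drugs against enalapril alone (purple squares). The red circles lie away from 0 by the choice of the genes, and the purple squares gather near 0, with Ecrg4 at -0.34 and Anpep at 0.41 among those that keep their side.

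Levels at baseline, 4 weeks before, place these genes without adding a test, because a difference from vehicle in either direction shares the vehicle arrays. Podxl was at 9.81, 9.90, 9.75 and 9.65 at baseline, overlapping the paricalcitol hearts and above all vehicle hearts. Kcnj8 was at 8.39, 8.39, 8.48 and 8.43 at baseline, inside the range of the paricalcitol hearts. Cxcl12 averaged 11.46 in paricalcitol hearts, 10.76 in vehicle hearts and 11.27 at baseline, and Anpep 7.10 in paricalcitol hearts, 6.13 in vehicle hearts and 6.85 at baseline. Hipk2 went against this order, with 8.79 in paricalcitol hearts, 9.94 in vehicle hearts and 9.76 at baseline. Atp6v0e2 also stood lower in paricalcitol hearts (8.23) than at baseline (8.69), with vehicle hearts at 8.95.

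Other processes held few differences. Cytosolic ribosomal protein genes were higher in 20 of 28 cases with a median of 0.05, which turned to -0.09 with arrays centred on their medians, and Rpl14 averaged 11.63 ± 0.10 in paricalcitol hearts and 11.29 ± 0.04 in vehicle hearts without overlap. Of 33 fatty acid oxidation genes, 17 were higher and 16 lower, with Decr1 and Hadha, enzymes of mitochondrial beta-oxidation, at 0.31 and 0.24 and Cpt1a, which admits fatty acids into mitochondria, at -0.29. Of 19 genes of the TCA cycle, 13 were lower, with a median of -0.03 that turned to 0.02 under cyclic loess, and with Dlst, a subunit of the oxoglutarate dehydrogenase complex, at -0.25. Chaperones Hspb1 and Hspa5 differed by 0.42 and 0.30. Adm, the vasodilator peptide adrenomedullin, averaged 8.67 ± 0.31 in paricalcitol hearts and 9.21 ± 0.17 in vehicle hearts, and the vehicle arrays stood above all others in the series. Becn1, which starts autophagy, averaged 9.87 ± 0.11 in paricalcitol hearts and 10.10 ± 0.08 in vehicle hearts, without overlap. None of these genes passed.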

How the data were processed

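Total RNA of the left ventricle of 19 rats, with an integrity number above 9 per the labels' protocols, was hybridised as biotin-labelled cRNA to 1 Affymetrix array per rat. The deposited values are linear intensities, 1 for each of 31099 probe sets and array, with 16.0% to 18.2% of each array's values under 0, which a subtraction of background by the authors would give. The tools and scaling of that step were not given in the sources used here.

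Quantile normalization was applied to these intensities over the 19 arrays, negative values were raised to 0, and the log2 was taken after adding 16. Differences are on that scale, which understates the change of dim genes. Of the probe sets, 20826 named 1 gene in the platform annotation, and for each of the 14217 genes the probe set brightest on average was kept. Left out were 9780 probe sets without a gene, 436 with several and 57 controls. In R 4.3.3, limma 3.58.1 fitted 1 mean per group to the 19 arrays, with a trend of variance on level, and p-values were adjusted by Benjamini-Hochberg over all 14217 genes, with a threshold of 0.05. The procedure was tested on simulated data. Gene lists (35, with 738 measured members of 831) are described by counts and medians. Array deviations of a list are its members' mean distance from their mean over all arrays.

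Genes were named by rule: those past the threshold, the 12 higher and 12 lower genes with the smallest p among genes whose arrays did not overlap and whose level lay above the median in either group, up to 4 genes per list, and a panel of cardiac, vitamin D and renin-angiotensin genes. The rule gives 168 genes, of which the text describes the better known. Members of a list given outside the rule (such as Tnnt2, Nos3, Smtn, Psmb5, Atp6v1a, Atp6v0a4, Cx3cl1) were chosen after their values were seen. The comparison, lists and rule were chosen with earlier results of these data known. CCAAT and GC boxes were added to the motif search after the data were seen.

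Nothing says that replicate numbers mark shared animals or days. A number was taken to pair 2 groups where the deviations of equally numbered arrays from their group means correlated above 0.1 in every pair. Paricalcitol and double-treated arrays met this in 4 of 4 pairs and paricalcitol and vehicle arrays in 3 of 4. The block is an alternative. The number of arrays limits the precision, and p-values measure only the spread between these rats. Alternatives covered scaling, pseudocount, filtering, variance model, probe sets, a replicate block, a covariate for red cell RNA and omission of single arrays.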

Additional observations from a re-analysis of the deposited data

Results flagged for a closer look

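In 187 sets of 4 arrays (1 gene in 1 group), 8 held a lone array far from the other 3 (4.28%), where chance gives about 1 in 20. Atp6v0e2 on vehicle array 1 was at 8.70, with the others between 9.01 and 9.05, which narrowed its distance from the paricalcitol arrays. Among proteasome subunits, Psmc3 on vehicle array 3 was at 9.31, below 9.41 on the next array, and Psmb3 on vehicle array 2 was at 10.17, below 10.30. Atp2b1 on vehicle array 1 was at 8.51, with the others from 9.15 to 9.26. Agt left the floor on paricalcitol array 2 (4.03) and vehicle array 2 (4.33) alone. Nppa on vehicle array 1 was at 14.39 and Myh7 on vehicle array 3 at 14.05, both within a very narrow group range at the bright end.

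Probe sets outside the gene comparison, because they name no gene or several, were fitted the same way, and 1 of 10216 passed limma's test. It averaged 6.15 in paricalcitol hearts and 5.19 in vehicle hearts, a difference of 0.96 (SE 0.14, limma adjusted p = 0.046).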

How the results depend on the processing

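The count of 2 passing genes, 0 higher and 2 lower, changed with the scaling. On the deposited values 1 gene passed, higher (Crygs, named here because it was the one call), and with each array centred on its median 71 passed, 7 higher and 64 lower, while the median of all genes moved to -0.08. Cyclic loess left 1, lower, as did the fit without a variance trend (both Ecrg4) and the fit of the 8 arrays alone (Pde1b, not otherwise named). With the dimmer genes left out 9 of 7108 passed, 2 higher and 7 lower, and Ecrg4 was not among those tested. Averaging probe sets gave 1 higher call, and testing each probe set gave 4 calls, 1 of them higher. With a replicate block 14 passed, 4 higher and 10 lower, and both main genes were among them; equally numbered paricalcitol and vehicle arrays correlated in their deviations at 0.222, 0.363, -0.133 and 0.115, and 2 of 4 paricalcitol and 3 of 4 vehicle arrays correlated best with their own number, a hint of pairing from the data and not from the design. Leaving out 1 array at a time gave 0 to 10 passing genes, 0 to 3 of them higher and 0 to 7 lower, with 10 without paricalcitol array 1, 4 without vehicle array 1, 1 without paricalcitol array 3 and 0 without vehicle array 3, vehicle array 4 or paricalcitol array 4. The interaction went to 1 gene on the deposited values and 1 with the replicate block, and to 0 to 2 with an array left out, 2 without enalapril array 2 and 1 without double-treated array 3.

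Signs turned for 9 genes, none of which passed. Col1a1 (0.35, SE 0.37) and Col3a1 (0.18, SE 0.27) were the largest of them, each smaller than its SE, and the other 7 lay near 0. On the deposited values Vdr became 0.067, Myh7 -0.0024 and Acta1 -0.023. With centred arrays Myh7 became -0.11, Acta1 -0.13 and Atp6ap2 -0.094, and Atp6ap2 became -6.7e-05 with array weights and -0.021 with averaged probe sets. Atp2a2 became 0.016 under cyclic loess and Tgfb1 0.049 with the red cell covariate. With 1 array left out, Vdr ran from -0.19 to 0.15 (above 0 without vehicle array 2 or paricalcitol array 1 or 4), Atp6ap2 from -0.028 to 0.062, Atp2a2 from -0.049 to 0.011 (above 0 without paricalcitol array 1) and Tgfb1 from -0.24 to 0.13 (above 0 without paricalcitol array 2 or 3). Agt ran from -0.10 to 0.0077, above 0 without vehicle array 2, and Col1a1 from -0.011 to 0.60 and Col3a1 from -0.074 to 0.35, both below 0 without paricalcitol array 3. Of the remaining comparisons of a gene or list median with its reported value, 32 genes' calls crossed to passing and 14 to not passing. Among list medians, 28 moved by more than the spread between replicates. The other 2596 were genes that kept direction and side of the threshold, or list medians that moved by less than that spread. Such a list median could still change sign. That of fibroblast markers, 0.09 in the main fit, reached -0.09, and that of immediate early genes, -0.04, reached 0.08. The causes were not tested. Dim genes such as Lss, Vdr and Atp6v1c2 have little signal over background, which limits what they show.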
